A study of Mus musculus with 9 samples.

Results

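Ebf1, Ebf2, Ebf3, Prrx1, Twist1, Twist2, Snai1, Snai2, Zeb1 and Zeb2 encode transcription factors of mesenchymal cells and of the epithelial-mesenchymal transition. They were 10 of the 24453 genes in the expression table of fibroblasts from fibrotic mouse liver. The members were taken by gene symbol, but the family list was selected on earlier results of the same libraries, in which Ebf1 had one of the largest increases in NASH-fib over HSCs. The values of that comparison are therefore given as a description without p-values, and the calls in the other comparisons, which share its libraries, are not independent evidence either.

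RNA was sequenced from 9 libraries, 3 in each of 3 groups. The methods of the study give a C57BL/6J background for the wild-type and the MC4R-KO mice and none for the Col1a2-GFP Tg mice. HSCs were hepatic stellate cells, the vitamin A-storing pericytes of the liver, separated by density gradient from healthy wild-type livers. CCl4-fib were CD45- GFP+ cells sorted from Col1a2-GFP Tg mice given carbon tetrachloride 2 times a week for 8 weeks, and NASH-fib were CD45- GFP+ cells sorted from male mice carrying both Col1a2-GFP Tg and MC4R-KO (MC/COL mice) after a Western diet for 20 weeks from the age of 8 weeks. Each library pooled cells of 3 to 5 mice. In both fibroblast groups GFP was driven by the collagen α2(I) promoter, so that the sort took collagen-producing cells, whereas HSCs were not sorted for GFP. The way of isolation cannot be told apart from the disease in comparisons with HSCs, and the MC4R-KO genotype, the diet and the disease cannot be told apart in NASH-fib. Ages of the other mice were not given in the sources used here. Mc4r, the deleted gene, gave 0 reads in all HSC and CCl4-fib libraries, and 4, 13 and 0 in the 3 NASH-fib libraries, which leaves the labels unchecked by it.

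These factors bind DNA in different ways. EBF proteins are helix-loop-helix factors with a zinc-knuckle DNA-binding domain. Ebf1 is best known for B-cell specification but also acts, with Ebf2 and Ebf3, in stromal, bone and adipose lineages. Prrx1 is a paired-type homeodomain protein of limb and craniofacial mesenchyme. Twist1 and Twist2 are basic helix-loop-helix proteins that bind E-boxes, CANNTG, as dimers with E-proteins such as Tcf4, and Id proteins compete for the same partners. Snai1 and Snai2 (Slug) are zinc-finger repressors, and Zeb1 and Zeb2 carry zinc-finger clusters at both ends of the protein. Both families bind E-boxes of the CACCTG type and repress E-cadherin (Cdh1) and other epithelial genes through corepressors.

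The bases just before the start sites are shown for members that rose together (Ebf1 and Prrx1) and for the E-box-binding members that were lowest in NASH-fib (Twist1 and Snai1). They are RefSeq sequences of mouse GRCm38.p6, each the 250 bases that end at the base before the start site, written in the direction of transcription, with capitals only for a match to CACCTG on either strand. The Ebf1 window is chr11:44617850-44618099 (plus strand), that of Prrx1 chr1:163313651-163313900 (minus strand), that of Twist1 chr12:33957421-33957670 (plus strand) and that of Snai1 chr2:167537945-167538194 (plus strand). The Snai1 window precedes a RefSeq start that lies 32 bases upstream of the start given by the expression table, and distances in it are counted from that RefSeq start.
Ebf1: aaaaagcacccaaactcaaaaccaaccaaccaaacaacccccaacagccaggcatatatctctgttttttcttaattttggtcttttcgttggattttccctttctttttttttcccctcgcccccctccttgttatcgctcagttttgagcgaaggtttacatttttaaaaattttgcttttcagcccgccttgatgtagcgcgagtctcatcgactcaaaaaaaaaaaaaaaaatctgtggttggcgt
Prrx1: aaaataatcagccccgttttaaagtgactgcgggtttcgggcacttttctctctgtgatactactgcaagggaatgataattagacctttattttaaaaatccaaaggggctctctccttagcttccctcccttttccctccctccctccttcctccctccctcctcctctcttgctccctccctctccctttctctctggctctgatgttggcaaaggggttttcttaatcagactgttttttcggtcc
Twist1: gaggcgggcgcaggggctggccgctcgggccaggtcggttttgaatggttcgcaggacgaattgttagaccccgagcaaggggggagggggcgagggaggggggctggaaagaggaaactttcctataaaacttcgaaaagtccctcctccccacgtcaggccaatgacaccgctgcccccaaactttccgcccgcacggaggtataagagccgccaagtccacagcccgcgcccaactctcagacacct
Snai1: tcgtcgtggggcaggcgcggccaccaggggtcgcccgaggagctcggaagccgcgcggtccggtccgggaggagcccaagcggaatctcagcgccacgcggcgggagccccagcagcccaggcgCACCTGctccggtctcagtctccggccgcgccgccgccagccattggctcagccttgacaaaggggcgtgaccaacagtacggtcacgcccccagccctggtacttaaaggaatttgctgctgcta
The windows of Ebf1 and Prrx1 held 40.0% and 47.6% G and C, below the median of 52.4% over 32851 windows of the same length, and those of Twist1 and Snai1 held 62.4% and 70.0%. The other matched windows held 55.6% (Zeb2), 68.8% (Twist2) and 80.0% (Ebf3). Start sites of 7 of the 10 members were matched. Among these 7 windows CACCTG was found only before Snai1, 126 bases upstream of the start, against 17.2% of all windows, and CANNTG, which includes every CACCTG, also only there, against 66.2% of all windows. The EBF core TCCCNNGGG, searched on both strands, was found only before Ebf3, at 22 bases, against 5.6% of all windows. A match is a description of the letters, and a window without one says only that the letters are not in these 250 bases.

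The deposited values are exonic read counts scaled to a common total per library. Each library held 3071070 to 5634273 reads on genes, and a count of 3 reads, taken here as the floor, corresponded to a value of 2.38 to 4.37. The floor covers counting error only, as amplified reads are not independent molecules. The labelled cell types were checked against their markers. The summed value of 7 activated-fibroblast markers (Col1a1, Col1a2, Col3a1, Acta2, Timp1, Lox and Postn) was 6261 to 12010 in HSCs, 45780 to 52913 in CCl4-fib and 23531 to 28038 in NASH-fib, and that of 11 quiescent stellate markers was 36094 to 41325, 4495 to 7695 and 2065 to 5087. Markers of other cell types were also detected. The sum of 9 sinusoidal endothelial markers was 7981 to 16005 in HSCs, 252.8 to 355.6 in CCl4-fib and 1307 to 4216 in NASH-fib, and that of 8 macrophage markers was 4125 to 13636, 373.8 to 751.9 and 2784 to 6082. None of these endothelial or macrophage markers was at 0 reads throughout a group. The 9 hepatocyte markers found in the table summed to 18863 to 33429, 1665 to 2244 and 5872 to 23824. Although both fibroblast sorts took CD45- cells, 6 neutrophil markers summed to 591.3 to 5995 in NASH-fib against 5.55 to 48.7 in CCl4-fib and 49.0 to 1030 in HSCs, and 4 of the 5 tested were called higher in NASH-fib than in CCl4-fib, with the largest log2 fold change in Ngp (7.02). The part of these cells in differences between the fibroblast groups was not tested. NASH-fib libraries varied most, with correlations between libraries of 0.768 to 0.908 across 13651 genes, against 0.833 to 0.914 in HSCs and 0.914 to 0.937 in CCl4-fib. NASH-fib replicate 1 lay nearest to the HSCs (highest r = 0.793).

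Of the 10 members, 9 passed the filter on low counts and were tested among 13651 genes by limma on log2(value + 1). Ebf3 did not pass. A gene was called at a 2-fold change or more (log2 fold change of at least 1) and an adjusted p under 0.05. NASH-fib against HSCs is the contrast that brought up the list, so nothing is read from its calls. There Ebf1, Ebf2 and Prrx1 were past both limits upward and the other 6 tested members past neither side, where 8.23% of all tested genes were called higher and 4.3% lower. In CCl4-fib against HSCs the 3 same members were also called higher, against 16.2% of all genes, and Zeb2 and Snai2 lower, against 11.7%. In NASH-fib against CCl4-fib, Ebf1 was called higher, against 4.97% of all genes, and Twist1 lower, against 5.66%. The median log2 fold change of the 9 members was -0.91, 0.28 and 0.72 in these 3 comparisons, beside -0.02, 0.18 and -0.11 over all tested genes, and was the same with Ebf1 and Ebf2 set to their bounds against HSCs given below. All libraries of one group lay above or below all of the other for 3 of the 9 members in NASH-fib against HSCs (24.4% of all genes), 7 in CCl4-fib against HSCs (48.6%) and 6 in NASH-fib against CCl4-fib (39.1%). In both fibroblast groups every library lay above those of HSCs for Ebf1, Ebf2 and Prrx1, which for NASH-fib is a description only. Snai2, Zeb1 and Zeb2 had their lowest means in CCl4-fib, with every CCl4-fib library below those of HSCs, but Zeb1 was not called in any comparison. Twist1 was highest in CCl4-fib. Snai1 and Twist2 were also not called in any comparison, and Ebf3 was not tested. As these are bulk libraries, fewer cells that express a gene and less RNA per cell cannot be told apart.

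**Figure D1:**
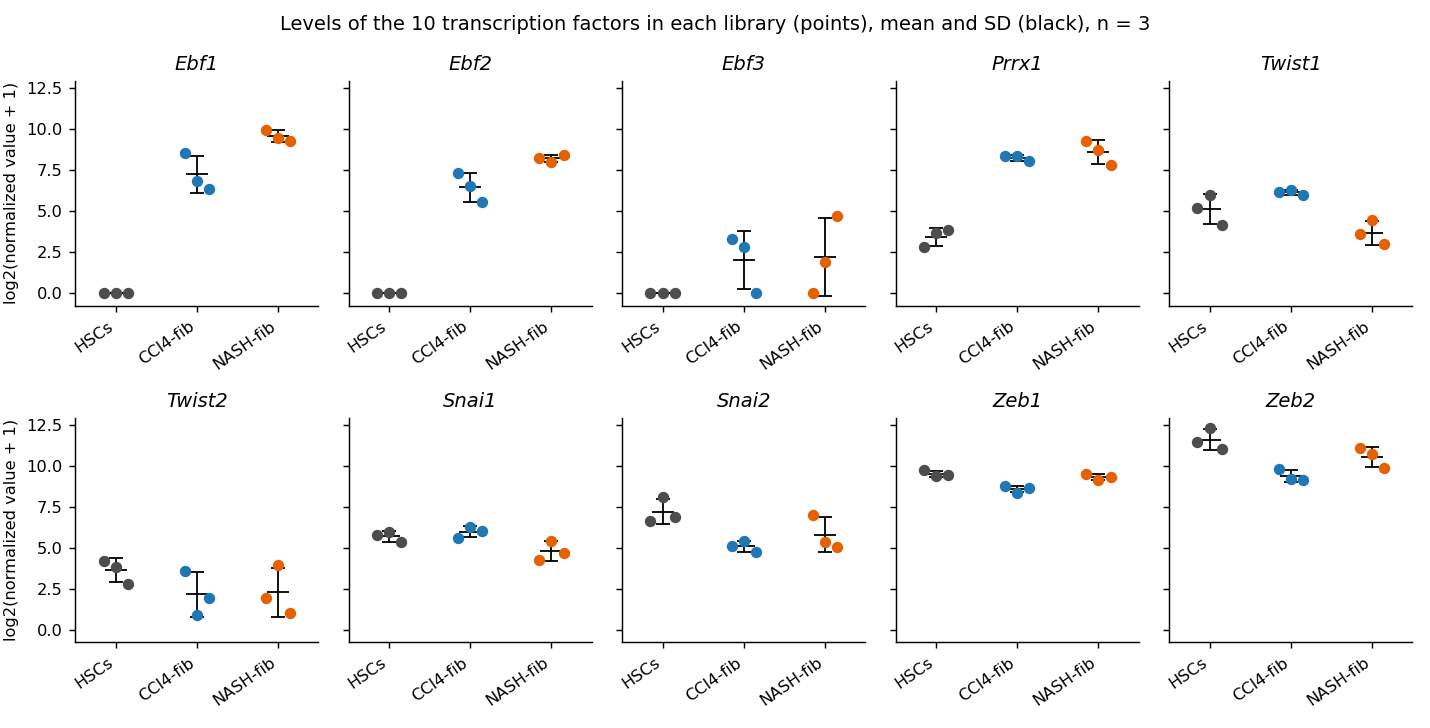
Level of each factor in the 9 libraries on a log2(normalized value + 1) axis, one panel per gene, with points for libraries, black dashes for the mean and bars for the SD (n = 3). Ebf1 and Ebf2 sit at 0 in all 3 HSC libraries and lie higher in CCl4-fib and highest in NASH-fib, Prrx1 is high in both fibroblast groups, Twist1 is highest in CCl4-fib, and Zeb2 is highest in HSCs.

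Ebf1 (NM_001290711, chromosome 11, 44618100 to 45008096, plus strand) had 0 reads in each of the 3 HSC libraries. Its normalized value was 367, 113 and 81.1 in CCl4-fib replicates 1, 2 and 3 and 995, 704.5 and 619 in NASH-fib replicates 1, 2 and 3. All NASH-fib libraries lay above all CCl4-fib libraries, and none of the groups overlapped. CCl4-fib averaged 187 ± 156.5 (SD, n = 3) and NASH-fib 773 ± 197 (SD, n = 3). Against the floor of 3 reads per library, averaged over the HSC libraries, CCl4-fib had at least 48.9-fold higher Ebf1 and NASH-fib at least 202-fold higher Ebf1. Without CCl4-fib replicate 1, which held the highest Ebf1 value of its group, the bound for CCl4-fib was 25.4-fold. Between the fibroblast groups, Ebf1 was 4.13-fold higher in NASH-fib as a ratio of means, and its log2 fold change was 2.33 (SE, the standard error, 0.57, adjusted p = 0.0301, limma with Benjamini-Hochberg adjustment). This ratio was 7.96-fold without CCl4-fib replicate 1. The call was lost without any 1 of CCl4-fib replicates 2 and 3 and NASH-fib replicates 1, 2 and 3 (adjusted p = 0.131, 0.101, 0.0859, 0.0502 and 0.0812 by limma), and the log2 fold change stayed between 1.89 and 2.97 over 19 alternatives.

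Ebf2 (NM_010095, chromosome 14, 67233292 to 67430952, plus strand), a regulator of brown adipocyte and osteoblast lineages, also had 0 reads in every HSC library. CCl4-fib replicates 1, 2 and 3 had values of 155, 89.3 and 44.8, and the NASH-fib replicates 295, 256 and 341. As for Ebf1, the 3 groups did not overlap. Over the floor of HSCs, Ebf2 was at least 25.2-fold higher in CCl4-fib, and NASH-fib exceeded that floor at least 77.8-fold. The difference between NASH-fib and CCl4-fib was 3.09-fold in means, a log2 fold change of 1.78 (SE 0.53), and lay just outside the threshold (adjusted p = 0.057, limma with Benjamini-Hochberg adjustment). It was called with DESeq2, upper-quartile scaling, TMM-scaled log2 CPM and a pseudocount of 5 (adjusted p = 0.0118, 0.0462, 0.0347 and 0.0353, the last 3 by limma). An antisense gene, Gm10860, shares 6.12% of the 6928 annotated exonic bases of Ebf2. Reads were counted on both strands over 5508 bases, of which the shared part is not known.

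Ebf3 (NM_001113414, chromosome 7, 137193671 to 137314445, minus strand) had few reads. There were 0 reads in every HSC library, 11, 7 and 0 reads in CCl4-fib and 0, 3 and 25 reads in NASH-fib. The highest value came from a single NASH-fib library, replicate 3, and a difference between the groups was not detectable at this depth. Per exonic kilobase, Ebf1 contributed 55.1% to 69.8% of the summed EBF value in CCl4-fib libraries and 63.6% to 77.8% in NASH-fib, Ebf2 28.4% to 41.9% and 22.2% to 33.7%, and Ebf3 at most 3.09% and 2.69%. The ratio of Ebf1 to Ebf2 per kilobase was 1.32 to 2.46 in CCl4-fib and 1.89 to 3.50 in NASH-fib, ranges that overlap. A ratio within a library does not depend on how libraries were scaled.

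The EBF values were set beside markers of cells known to express Ebf1. The sum of 8 B-cell markers was 49.5 to 105.2 in HSCs, 15.9 to 25.8 in CCl4-fib, where Pax5 and Cd22 had 0 reads, and 61.2 to 116 in NASH-fib. In every fibroblast library Ebf1 alone exceeded this sum, and in HSCs, which had B-cell marker reads, Ebf1 had none. The sum of 6 smooth muscle markers moved with the EBF genes between groups. It was 99.0 to 171.9 in HSCs, where Casq2 had 0 reads, 3001 to 13941 in CCl4-fib and 4994 to 20361 in NASH-fib. Within CCl4-fib the library with the most smooth muscle signal, replicate 1, was also the highest in Ebf1 and Ebf2. Within NASH-fib the sum was lowest, at 4994, in replicate 1, which was highest in Ebf1. Myh11 had a mean of 7855 in NASH-fib, where the mean sum was 12082, so the sum mostly follows this gene. Markers of portal and adventitial fibroblasts (177.6 to 221.2, 8781 to 11326 and 5978 to 11792 for 8 genes) and of mesothelium (594 to 944.5, 15517 to 21729 and 24622 to 31163 for 5 genes) rose as well. The part of these cell types in the EBF values was not tested.

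Prrx1 (NM_175686, chromosome 1, 163245119 to 163313650, minus strand) had values of 5.84, 11.65 and 13.15 in the HSC libraries, 324, 327 and 258 in the CCl4-fib libraries and 617, 428 and 219 in the NASH-fib libraries. Every fibroblast library lay far above every HSC library, and the 2 fibroblast groups overlapped. From 10.2 ± 3.86 (SD, n = 3) in HSCs CCl4-fib rose 29.7-fold in mean to 303 ± 39.3 (SD, n = 3), or by 4.82 on the log2 scale (SE 0.47, adjusted p = 7.32e-05, limma with Benjamini-Hochberg adjustment). In NASH-fib it was 422 ± 199 (SD, n = 3), 41.3-fold above HSCs, or 5.18 on the log2 scale (SE 0.47). Between NASH-fib and CCl4-fib the log2 fold change of Prrx1 was 0.36, with a 95% interval of -0.69 to 1.41 (adjusted p = 0.639, limma). In CCl4-fib against HSCs the calls of Ebf1, Ebf2 and Prrx1 were kept under all 19 alternatives.

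**Figure D2:**
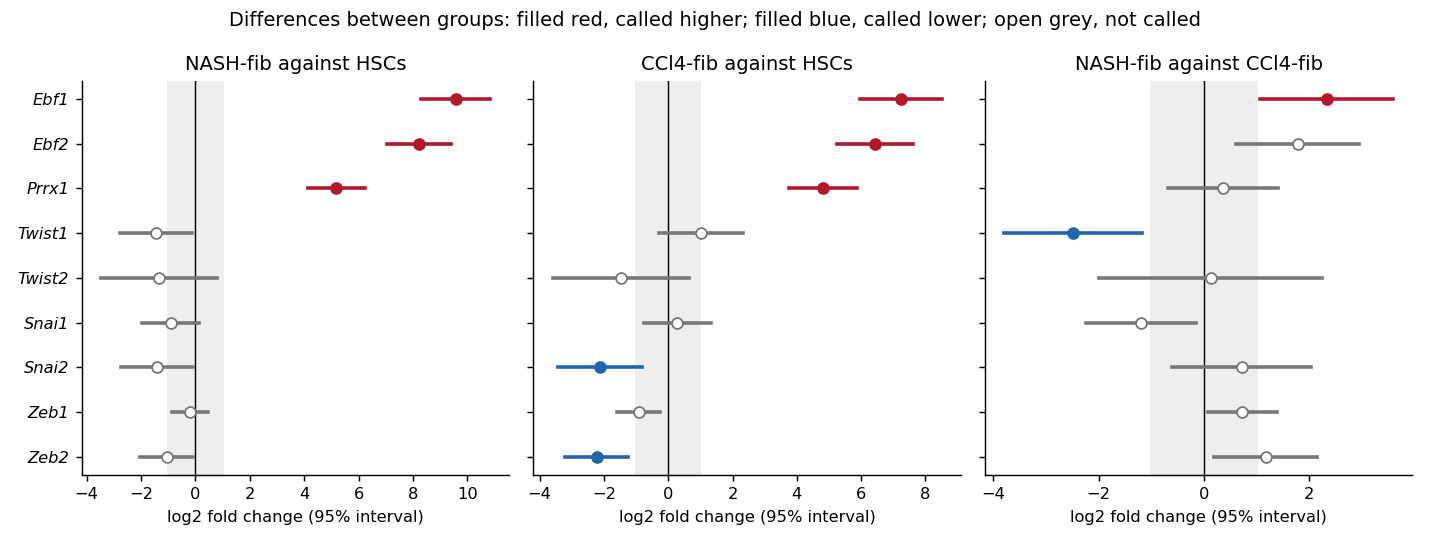
log2 fold change of the 9 tested members with 95% intervals from limma, one panel per comparison. Grey bands mark changes under 2-fold, and filled points are called. Ebf1, Ebf2 and Prrx1 lie far to the right against HSCs in both panels, Zeb2 and Snai2 are called lower only in the CCl4-fib panel, and Ebf1 and Twist1 are called in opposite directions between the fibroblast groups. The horizontal scales differ between panels, and the fitted values of Ebf1 and Ebf2 against HSCs depend on the added 1.

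Twist1 (NM_011658, chromosome 12, 33957671 to 33959831, plus strand), the E-box factor of cranial mesenchyme and of many transition programmes, stood at 35.1, 62.6 and 16.7 in the HSC libraries, at 69.05, 76.55 and 62.97 in CCl4-fib and at 10.9, 20.5 and 6.88 in NASH-fib. It was the only member whose lowest CCl4-fib library exceeded every library of both other groups, by a narrow margin over HSC replicate 2. In NASH-fib Twist1 was 5.46-fold lower in mean than in CCl4-fib (12.7 ± 6.99 against 69.5 ± 6.80, SD, n = 3). On the log2 scale Twist1 differed by -2.48 (SE 0.59, adjusted p = 0.0282, limma with Benjamini-Hochberg adjustment). The call was lost without CCl4-fib replicate 1, 2 or 3 or NASH-fib replicate 1 or 3 (adjusted p = 0.0859, 0.113, 0.0703, 0.0619 and 0.0949 by limma), with the log2 fold change between -2.86 and -2.14 over 19 alternatives. Against HSCs the log2 fold change of Twist1 was 1.03 in CCl4-fib (SE 0.59, adjusted p = 0.217, limma) and -1.45 in NASH-fib (95% interval -2.76 to -0.14), and neither was called. Twist1 and Ebf1 thus differed between the fibroblast groups in opposite directions. Each library label begins with a prefix that was read here as a date, although the labels do not say what it stands for. On the single date of the library labels that held 1 library of each group, the log2 difference of NASH-fib from CCl4-fib was 1.44 for Ebf1, 0.93 for Ebf2 and -2.56 for Twist1, and on the date with 2 NASH-fib and 1 CCl4-fib libraries it was 3.01, 2.69 and -2.30. With the date in the limma fit, 0 of the 9 members were called between the fibroblast groups, where 3 were higher and 1 lower at an unadjusted p under 0.05. DESeq2 called 4 of the 9 (Ebf1, Ebf2 and Zeb2 higher, Twist1 lower) and edgeR 1 (Twist1). Calls over all tested genes differed between these fits as well. The fit as reported called 678 higher and 773 lower, the fit with the date 344 and 249, DESeq2 1518 and 1161, and edgeR 802 and 563.

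Twist2 (NM_007855, chromosome 1, 91801461 to 91848034, plus strand) was low, with 17.5, 13.1 and 5.98 in the HSC libraries, 11.1, 0.85 and 2.86 in the CCl4-fib libraries and 2.72, 14.25 and 0.98 in the NASH-fib libraries. All groups overlapped. The antisense gene Gm29100 shares 46.5% of the 3174 annotated exonic bases of Twist2, and reads on shared bases could not be told apart. Reads were counted over 1331 bases only, so the shared part of the counted bases is not known. Its log2 fold change in NASH-fib against CCl4-fib was 0.13 (95% interval -2.0 to 2.25). Twist1 made up 62.1% to 79.6% of the summed TWIST value per kilobase in HSCs, 83.6% to 98.7% in CCl4-fib and 54.1% to 85.2% in NASH-fib.

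Snai1 (NM_011427, chromosome 2, 167538227 to 167542811, plus strand), the Snail repressor induced early in the transition, read 52.6, 61.2 and 39.45 in the HSC libraries, 47.6, 74.8 and 64.9 in the CCl4-fib libraries and 17.7, 41.9 and 24.6 in the NASH-fib libraries. The NASH-fib libraries lay below every CCl4-fib library, while HSCs overlapped both. The log2 fold change in NASH-fib was -1.19 against CCl4-fib (SE 0.47, adjusted p = 0.13, limma) and -0.91 against HSCs (95% interval -1.95 to 0.14), and in CCl4-fib against HSCs it was 0.28 (95% interval -0.76 to 1.33). None of these was called.

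Snai2 (NM_011415, chromosome 16, 14705859 to 14709382, plus strand), its paralog of neural crest and mesenchyme, had values of 98.2, 268 and 117 in the HSC libraries, 32.5, 41.7 and 25.8 in the CCl4-fib libraries and 126, 39.2 and 32.4 in the NASH-fib libraries. The CCl4-fib libraries were all below the HSC libraries, whereas NASH-fib replicate 1 reached the HSC range. In CCl4-fib the mean of Snai2 was 4.83-fold lower than in HSCs (33.3 ± 7.98 against 161 ± 93.0, SD, n = 3), with -2.12 on the log2 scale (SE 0.60, adjusted p = 0.0239, limma with Benjamini-Hochberg adjustment). This call was lost without HSC replicate 2 (adjusted p = 0.0851, limma) and without CCl4-fib replicate 1, 2 or 3 (adjusted p = 0.0698, 0.0515 and 0.076, limma). In NASH-fib against HSCs, as a description only, the log2 fold change of Snai2 was -1.40 (95% interval -2.72 to -0.08). Without NASH-fib replicate 1 the mean was 4.50-fold lower and the log2 fold change was -2.0. The order of the 2 Snail genes differed between HSCs and CCl4-fib. Snai2 exceeded Snai1 per kilobase in every HSC library, by 1.47, 3.45 and 2.34 times, and was 0.539, 0.439 and 0.313 times Snai1 in CCl4-fib. In NASH-fib the ratio was 5.64, 0.738 and 1.04, which spanned both ranges.

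Zeb1 (NM_011546, chromosome 18, 5591860 to 5775468, plus strand) stood at 839, 663 and 685 in the HSC libraries, at 425, 327 and 399.8 in CCl4-fib and at 733, 554 and 624 in NASH-fib. CCl4-fib lay below both other groups, which overlapped. Against HSCs the log2 fold change in CCl4-fib was -0.92 (SE 0.30, adjusted p = 0.041, limma with Benjamini-Hochberg adjustment). It passed the limit on p but not that of 2-fold, and 4 alternatives that rescaled the libraries or used counts gave -1.01 to -1.04 and a call. In NASH-fib the log2 fold change of Zeb1 was -0.20 against HSCs (95% interval -0.85 to 0.46) and 0.73 against CCl4-fib (95% interval 0.07 to 1.39, adjusted p = 0.138, limma).

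Zeb2 (NM_015753, chromosome 2, 44983512 to 45113279, minus strand), the most abundant member per kilobase in each group, reached 2843, 5051 and 2043 in the HSC libraries, 879, 573 and 563 in the CCl4-fib libraries and 2127, 1663 and 918 in the NASH-fib libraries. CCl4-fib lay below all other libraries, and the NASH-fib libraries reached into the HSC range only with replicate 1. The mean of Zeb2 was 4.93-fold lower in CCl4-fib than in HSCs (672 ± 180 against 3313 ± 1558, SD, n = 3). On the log2 scale Zeb2 differed by -2.23 (SE 0.44, adjusted p = 0.00378, limma with Benjamini-Hochberg adjustment), and the call was kept under all 19 alternatives. In NASH-fib the log2 fold change of Zeb2 was -1.06 against HSCs (95% interval -2.03 to -0.09) and 1.17 against CCl4-fib (95% interval 0.20 to 2.14, adjusted p = 0.111, limma), and neither was called. The ratio of Zeb2 to Zeb1 per kilobase was 1.87 to 4.79 in HSCs, 0.885 to 1.30 in CCl4-fib and 0.924 to 1.89 in NASH-fib, so that every CCl4-fib library lay below every HSC library.

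Zeb2 is also expressed by macrophages and endothelial cells, and the summed markers of both were likewise highest in HSCs, lowest in CCl4-fib and intermediate in NASH-fib. Within HSCs the order differed. Replicate 2, with the highest Zeb2 (5051) and Snai2 (268), had the lowest endothelial sum (7981) and a macrophage sum of 4237, and replicate 3, with the lowest Zeb2 (2043), had the highest endothelial and macrophage sums (16005 and 13636). In NASH-fib, replicate 3 had the highest sums (4216 and 6082) and the lowest Zeb2 (918) and Snai2 (32.4). All 9 endothelial markers were called lower in CCl4-fib than in HSCs, with the largest log2 fold change in Cdh5 (-7.25), as were 7 of the 8 macrophage markers, led by Clec4f (-7.94). The part of these cells in the group differences of Zeb2, Zeb1 and Snai2 was not tested.

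**Figure D3:**
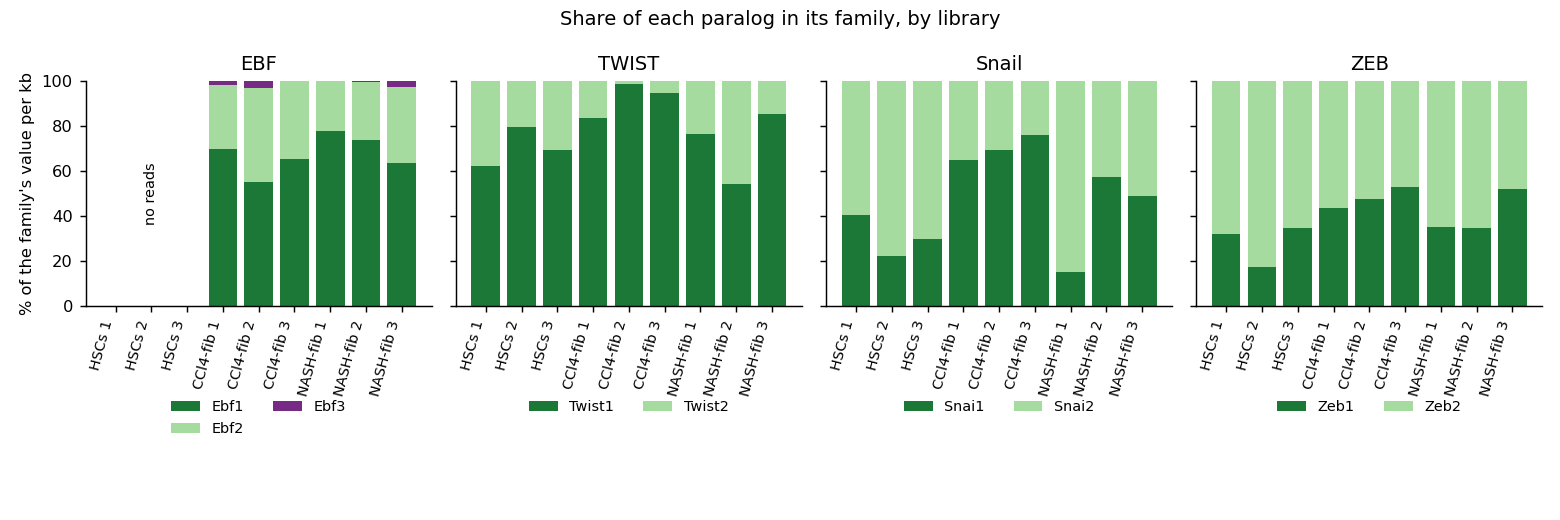
Stacked bars of the percentage of each family's summed value per exonic kilobase contributed by each paralog, one bar per library and one panel per family (from 0 to 100%). Snai1 takes 65.0% to 76.2% in CCl4-fib against 22.5% to 40.5% in HSCs, Zeb2 takes 46.9% to 56.5% against 65.2% to 82.7%, and HSCs show no EBF bar because they had no EBF reads.

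Levels of different members were compared per exonic kilobase. In HSCs the order by mean was Zeb2 (359), Zeb1 (126), Snai2 (80.3), Snai1 (32.3), Twist1 (23.5), Twist2 (9.17) and Prrx1 (2.06), with the EBF genes at 0. The libraries of Zeb1 and Snai2 overlapped, as did those of Snai1 and Twist1 and of Twist1 and Twist2, and the other neighbours above the EBF genes did not. In CCl4-fib the range between the leading members was narrow, with Zeb2 (72.9), Zeb1 (66.2) and Prrx1 (61.1) followed by Twist1 (42.8), Snai1 (39.5), Ebf1 (35.3), Ebf2 (17.5), Snai2 (16.6), Twist2 (3.71) and Ebf3 (0.983). Here only Prrx1 and Twist1, and Snai2 and Twist2, were neighbours whose libraries did not overlap. In NASH-fib the order was Zeb2 (170), Ebf1 (146), Zeb1 (110), Prrx1 (85.1), Ebf2 (54.0), Snai2 (32.9), Snai1 (17.7), Twist1 (7.84), Twist2 (4.50) and Ebf3 (1.82), and all neighbours overlapped. Ebf1 stood at the percentile of 60.2 among genes with a read in CCl4-fib and at 85.3 in NASH-fib, and Twist1 at 64.1 and 33.0.

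**Figure D4:**
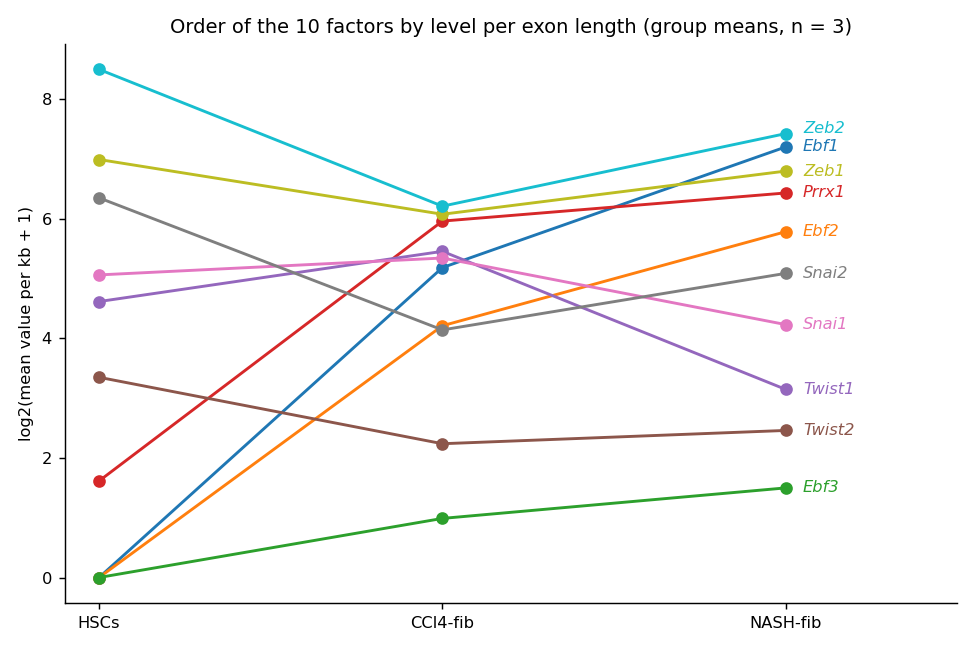
Group means per exonic kilobase of the 10 factors on a log2(value + 1) axis for HSCs, CCl4-fib and NASH-fib (n = 3 each). Lines join the means of a gene and are not a time course. Zeb2 stays on top, the lines of Ebf1 and Prrx1 climb past those of Twist1, Snai1 and Snai2, and Twist1 drops in NASH-fib.

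For each tested member the 3 genes with the most similar pattern were taken by Pearson's r of log2(value + 1) over the 9 libraries, which fall into 3 groups, so that r mostly describes the difference between groups and carries no p. For Ebf1 these were Casq2, the calsequestrin of cardiac and smooth muscle (r = 0.998), Map7d2 (0.997) and the membrane glycoprotein Cd200 (0.996). Casq2 and Map7d2 shared with Ebf1 the absence of reads in HSCs, and CCl4-fib had means of 344.3 and 62.1, NASH-fib of 1341 and 252.8. For Ebf2 they were 9330159F19Rik (0.999), Susd5 (0.998) and the cation channel gene Trpc6 (0.997), all without reads in HSCs. For Prrx1 they were the amine oxidase Aoc3 (0.987), the membrane linker ezrin, Ezr (0.986), and the protocadherin Pcdh19 (0.985). Zeb2 was closest to LOC102636514 (0.991), Serinc3 (0.978) and Dlc1 (0.978), Zeb1 to Gmfg, the lysosomal lipase Lipa and Rasa2 (each 0.975), and Snai2 to the membrane linker radixin, Rdx (0.981), Dbr1 (0.973) and the anticoagulant protein S gene Pros1 (0.972). Twist1 was closest to Guk1 (0.965), Zdhhc16 (0.962) and Nod1 (0.95), Snai1 was close to Bcl2l11 (0.944) and Trim47 (0.942), and Twist2 to Trak2 (0.94), Lonrf1 (0.88) and Susd6 (0.876).

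Partners of these factors were examined next. Of 7 genes for E-proteins and their Id inhibitors, 0 were called in NASH-fib against HSCs by limma and edgeR and 1 by DESeq2, with 3 at an unadjusted p under 0.05 in limma. Limma called 1 lower in CCl4-fib against HSCs (11.7% of all tested genes) and 1 higher in NASH-fib against CCl4-fib (4.97%), Tcf4 in both. Tcf4, a dimer partner of Twist proteins that was the most abundant of the 3 E-proteins, had values of 2436, 3642 and 2292 in the HSC libraries, 648, 616 and 550.5 in the CCl4-fib libraries and 1771, 1559 and 1098 in the NASH-fib libraries. The 3 groups of Tcf4 did not overlap. Its log2 fold change was -2.18 in CCl4-fib against HSCs (SE 0.32, adjusted p = 0.000814, limma with Benjamini-Hochberg adjustment), -0.91 in NASH-fib against HSCs (95% interval -1.63 to -0.20) and 1.26 in NASH-fib against CCl4-fib (adjusted p = 0.0353, limma). Twist1 was thus highest in the group in which Tcf4 was lowest. Tcf4 is also expressed by endothelial cells, whose markers moved in the same order, and their part in it was not tested. The other E-proteins were not called, with log2 fold changes in CCl4-fib and NASH-fib against HSCs of -1.04 and -1.31 for Tcf3 and of -0.21 and 0.04 for Tcf12. Among the Id genes, mean Id2 was 2180 in HSCs, 2569 in CCl4-fib and 4462 in NASH-fib, Id3 was 585.9, 2102 and 523, Id1 was 73.9, 81.7 and 127.8, and Id4 was 61.4, 14.0 and 28.1, and none was called in any comparison by limma. In CCl4-fib, Id3 was 2600 and 3240 in replicates 1 and 2 and 466.5 in replicate 3, so that its high mean came from 2 libraries.

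Among 3 EBF relatives and antagonists, Zfp521, a zinc-finger protein that antagonizes Ebf1, was called higher than in HSCs in both fibroblast groups, where 8.23% (NASH-fib) and 16.2% (CCl4-fib) of all tested genes were. Its values were 24.6, 29.1 and 2.39 in the HSC libraries, 179.4, 126.7 and 91.6 in the CCl4-fib libraries and 356.1, 461.4 and 691.9 in the NASH-fib libraries, and the 3 groups did not overlap. The log2 fold change was 3.23 in CCl4-fib (SE 0.75, adjusted p = 0.0093, limma with Benjamini-Hochberg adjustment) and 5.14 in NASH-fib (SE 0.75) against HSCs, and 1.92 between the fibroblast groups (adjusted p = 0.125, limma). Zfp521 thus had the order of Ebf1 and Ebf2 across groups. Its relative Zfp423 was at a mean of 42.9, 46.2 and 38.5 and the paralog Ebf4 at 8.99, 9.18 and 5.30 in HSCs, CCl4-fib and NASH-fib, and neither was called. Of 13 corepressors of Snail and Zeb proteins, 12 were not called in any comparison by limma. The other, Ctbp1, which binds Zeb proteins, rose in CCl4-fib against HSCs by a log2 fold change of 1.84 (adjusted p = 0.0452, limma), where 16.2% of all tested genes were called higher. It was lower in NASH-fib than in CCl4-fib by -2.98 (adjusted p = 0.0176, limma), where 5.66% of all tested genes were called lower.

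The list of other mesenchymal transcription factors held 36 genes, of which 25 were tested. In NASH-fib against HSCs 6 were called higher (8.23% of all tested genes) and 3 lower (4.3%). The largest fitted increases were in Meox2 and Meox1, homeobox factors of somites and vessels. Meox2 had 0 reads in every HSC library and 16, 46 and 45 in NASH-fib, at least 9.33-fold above the floor, and Meox1 had 1, 2 and 0 reads in HSCs and 24, 31 and 52 in NASH-fib. The largest decreases were in Tcf21 (log2 fold change -3.01) and Hand2 (-2.08), factors of stellate cells. In CCl4-fib against HSCs 9 were higher (16.2% of all tested genes) and 5 lower (11.7%). The largest increases were in Osr1, with 0, 0 and 4 reads in HSCs and 451, 564 and 71 in CCl4-fib, and Runx1 (4.93), and the largest decreases in Tbx20 (-2.48) and Nr2f1 (-2.14). Between NASH-fib and CCl4-fib 2 were higher (4.97% of all tested genes), Foxc1 (2.81) and Mef2c (1.91), and 3 lower (5.66%), led by Osr1 (-3.96) and Runx1 (-2.86). The median log2 fold change of the 25 was 1.16, 0.62 and 0.39 in the 3 comparisons.

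Genes downstream of the Snail, Twist and Zeb factors were counted in the same fit. Of 28 epithelial genes that these factors repress in the transition, 13 were tested. In NASH-fib against HSCs 5 rose (8.23% of all tested genes were called higher) and 0 fell (4.3%) by limma, edgeR or DESeq2, also 0 at an unadjusted p under 0.05. The 5 were Krt19 (log2 fold change 4.75), Cdh1, the E-cadherin gene (3.27), Krt18 (2.47), Krt8 (2.38) and Epcam, which had 0, 2 and 0 reads in HSCs and 49, 42 and 21 in NASH-fib. In CCl4-fib against HSCs 5 rose (16.2% of all tested genes) and 1 fell (11.7%). The largest increases were in Krt19 (7.75) and in Cldn3, with 0, 2 and 2 reads in HSCs and 19, 72 and 20 in CCl4-fib, and the decrease was in Marveld2, with 4, 3 and 12 reads in HSCs and 3, 0 and 0 in CCl4-fib. Between the fibroblast groups 3 were higher in NASH-fib (4.97% of all tested genes), Cdh1 (3.58), Epcam (3.40) and Marveld2, which had 9, 32 and 18 reads in NASH-fib. Limma called 0 lower (5.66% of all tested genes) and DESeq2 1, and in limma 2 were lower at an unadjusted p under 0.05. Krt19 lay just outside the threshold, with every NASH-fib library below every CCl4-fib library (log2 fold change -3.0, adjusted p = 0.0502, limma). The median log2 fold change of the 13 was 1.72, 1.21 and 0.04 in the 3 comparisons. The sum of 5 cholangiocyte markers (Krt7, Krt19, Epcam, Spp1 and Sox9), which share Krt19 and Epcam with this list, was 63.1 to 225.7 in HSCs, 3475 to 4750 in CCl4-fib and 5963 to 11604 in NASH-fib. Spp1 had a mean of 6944 in NASH-fib, where the mean sum was 7959, so the sum there mostly follows this gene. From CCl4-fib to NASH-fib the mean of Spp1 went from 1629 to 6944, Sox9 from 189.8 to 398.1 and Epcam from 3.567 to 41.55. Krt19 went down from 1881 to 290.1, and Krt7 was 303.1 and 285.1. Mesothelial cells, whose markers are given above, also express keratins, and the part of these cells in the epithelial genes was not tested.

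Of 24 mesenchymal genes of the transition, all tested, 10 rose and 4 fell in NASH-fib against HSCs (8.23% and 4.3% of all tested genes, list median 1.22), led by Acta2 (6.81) and S100a4 (6.53) and by Tgfbi (-3.25) and Cdh2 (-2.81). In CCl4-fib against HSCs 17 rose and 2 fell (16.2% and 11.7% of all tested genes, list median 2.53), led by Lox (7.06) and Cdh11 (6.84) and by Tgfbi (-3.48) and Cdh2 (-2.04), the N-cadherin gene. Between NASH-fib and CCl4-fib 1 was higher, the collagen receptor gene Ddr2 (1.29), and 8 were lower (4.97% and 5.66% of all tested genes, list median -1.13), led by the matrix metalloproteinase gene Mmp14 (-2.79) and Col5a1 (-2.45). This list includes Col1a2, whose promoter drove the sorted GFP. Of 12 genes listed as inducers of the factors, mostly of TGF-beta signaling and including its inhibitor Smad7, 10 were tested. Tgfb2 (4.46 and 3.99), Tgfb3 (4.85 and 5.99) and Egr1 (3.49 and 3.57) rose in NASH-fib and in CCl4-fib against HSCs, where 8.23% and 16.2% of all tested genes were called higher. Smad7, the inhibitory Smad, fell in CCl4-fib (-1.73), where 11.7% of all tested genes were called lower. Between the fibroblast groups 0 were called by limma, edgeR or DESeq2 (by limma 4.97% of all tested genes were higher and 5.66% lower). At an unadjusted p under 0.05 there were 0, 2 and 2, in that order. In limma 3940 of all 13651 tested genes had such a p between these groups.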

How the data were processed

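RNA of 9 libraries was sequenced and, per the labels and the methods of the study, aligned to mm10 with STAR and counted over exons with HOMER on both strands, with at most 3 reads per position. The authors deposited these counts divided by one factor per library, in unit a normalized signal. Whole reads were recovered from the steps of the deposited signal (all values whole within 0.006), which gave the depths. The 24453 genes were filtered with edgeR filterByExpr (minimum count 10) to 13651, and log2(value + 1) was tested with limma 3.58.1 in 1 fit over 3 groups, with Benjamini-Hochberg adjustment. A call needed a 2-fold change and an adjusted p under 0.05. Alternatives used edgeR 4.0.16, DESeq2 1.42.0, other scalings, filters and pseudocounts, blocks, and 8 or fewer libraries. The p-values measure the spread between these pools. Members and gene lists were chosen with earlier results of these data known. All members were named, with the 3 genes most alike each (1 of those of Snai1 is not reported here), all genes of the partner lists and, from other lists, at most 2 called genes per direction, by size of change. Replicate numbers did not pair the libraries.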

Additional observations from a re-analysis of the deposited data

How the results depend on the processing

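In NASH-fib against HSCs 3 members were past both limits, and Snai2 as well without NASH-fib replicate 1, which is a description only. In CCl4-fib against HSCs the count of members called was 4 to 6. In NASH-fib against CCl4-fib it was 2 in the fit as reported, 1 with edgeR (Twist1), 4 with DESeq2 (Zeb2, Ebf1, Ebf2 and Twist1), 3 with upper-quartile scaling, TMM-scaled log2 CPM or a pseudocount of 5 (Ebf2 added), 0 with the date as a block and 0 to 2 with 1 library left out. Calls over all tested genes also differed between the fit as reported, edgeR, DESeq2 and the date block, as given above with Twist1. The log2 fold change of Twist2 in NASH-fib against CCl4-fib changed sign, from 0.13 to -0.32 with the date block and to between -0.70 and 0.85 over the alternatives, being -0.50 when CCl4-fib replicate 2 was left out and -0.70 when NASH-fib replicate 2 was. The causes were not tested. The deposited scaling differs from the others. With edgeR the median of all genes moved by -0.18 in CCl4-fib against HSCs and by 0.25 in NASH-fib against CCl4-fib, where 46.7% of all calls were higher in the fit as reported, 58.8% with edgeR and 56.7% with DESeq2. With edgeR 0 rather than 1 of the epithelial genes were lower in CCl4-fib against HSCs and 5 rather than 8 of the mesenchymal genes were lower in NASH-fib against CCl4-fib. A filter on average RPKM over 100 left no member. Same-numbered libraries mostly did not deviate together (r -0.473 to 0.514 in 9 pairs, 1 over 0.1), and a replicate block called 3, 5 and 2 members. Among libraries of the same date label r was -0.171 to 0.645 in 6 pairs, also with 1 over 0.1. That pair, HSC replicate 2 and NASH-fib replicate 1, held the highest Zeb2 and Snai2 values of their groups. Both also had the fewest reads on genes of the 9 libraries (3071070 and 3289758). CCl4-fib replicate 1, of the same date label, had r of -0.072 and -0.127 with them. The part of the date or of the depth in this was not tested. Depth limits Ebf3 and Twist2, which had few reads.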
